A study of Mus musculus with 32 samples.

Results

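Adult and neonatal oligodendrocyte progenitor cells (OPCs) were compared in untreated culture, using 2 adult and 3 neonatal RNA-seq libraries out of the 32 of the series. The members were every library whose labels give an untreated culture, and all 20259 genes with enough counts were tested as adult minus neonatal. All cells came from the cortex of wild-type C57BL/6 mice, adult cells at postnatal day 60 and neonatal cells at postnatal day 5, and both ages were selected for the O4 surface antigen. Both were then grown on poly-D-lysine in SATO medium with forskolin, insulin, PDGF-AA and bFGF. The other 27 libraries came from cultures of the same ages treated for 48 h, in groups of 4 adult and 5 neonatal libraries for each treatment. A culture time for the untreated cells is not given in the sources used here. One treatment was 0.02% dimethyl sulfoxide (DMSO), another was labelled KATi and held 5 uM Garcinol with 0.2 uM NU-9056, and the last was labelled SUV420i and held 5 uM A-196. All 32 libraries entered the fit, and the age difference in DMSO was compared with that in untreated cells. O4 is also carried by immature oligodendrocytes, so the selected cells can hold several stages. The labels call the replicates biological without saying how many animals went into each, so the p-values cover only the spread between cultures, which may be technical.

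OPCs are the dividing glial cells that make new oligodendrocytes throughout life. PDGF-AA and bFGF act on receptor tyrosine kinases and the MAP kinase cascade to keep them cycling, and progenitors that leave the cycle pass through a committed stage marked by Gpr17 before they make myelin. In the intact brain adult OPCs are known to divide and differentiate more slowly than neonatal ones, and to carry a more mature receptor and ion channel repertoire.

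Library totals were 25.5 and 24.0 M counts in adult and 28.5, 24.7 and 29.6 M in neonatal cells, and levels are given in CPM, the usual per-library scaling of counts. Mitochondrial transcripts took 2.12% to 2.73% of counts. The 2 adult libraries correlated with each other at r = 0.986 across genes, which are not independent replicates. Among neonatal libraries, replicate 3 lay nearest to the adult ones (r = 0.979 and 0.977) and replicate 2 furthest (r = 0.966 and 0.961). On the first principal component, 54.3% of the variance, the adult libraries stood at 49.4 and 62.7 and the neonatal ones at -34.2, -64.2 and -13.8. Values of single libraries are given below as adult replicates 1 and 2 and neonatal replicates 1, 2 and 3, in that order.

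In edgeR's quasi-likelihood F test over all 32 libraries, 524 of 20259 genes (2.59%) passed a Benjamini-Hochberg adjusted p of 0.05, here termed called: 312 were higher (1.54%) and 212 lower (1.05%) in adult cells. The higher genes made up 59.5% of the calls in that fit and 43.5% with DESeq2, which called 588 higher and 763 lower among 17113 genes (7.89%). A 2-fold or larger difference was fitted for 173 of the higher and 114 of the lower genes, and 279 and 192 of them code for protein. None of the 524 genes overlapped between the ages, and neither did 51.9% of all genes tested. With 2 against 3 libraries an exact permutation test of a single gene could not go below a two-sided p of 0.2, and the calls rest on the spread that edgeR shares across all 32 libraries. Fitted on the 5 untreated libraries alone, edgeR called 2952 of 17435 genes (16.9%), 1555 higher and 1397 lower, among them 299 of the 312 higher and 203 of the 212 lower genes. Below, called refers to the fit of all 32 libraries unless another fit is named, and genes not called there can be called in another fit. The calls depended on single libraries: 43 and 4 genes were called without adult replicates 1 and 2, and 164, 22 and 758 without neonatal replicates 1, 2 and 3. Called in the full set and in each of the 5 reduced ones were Cdon, Foxd2, Foxd2os and Tfap2a.

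**Figure D1:**
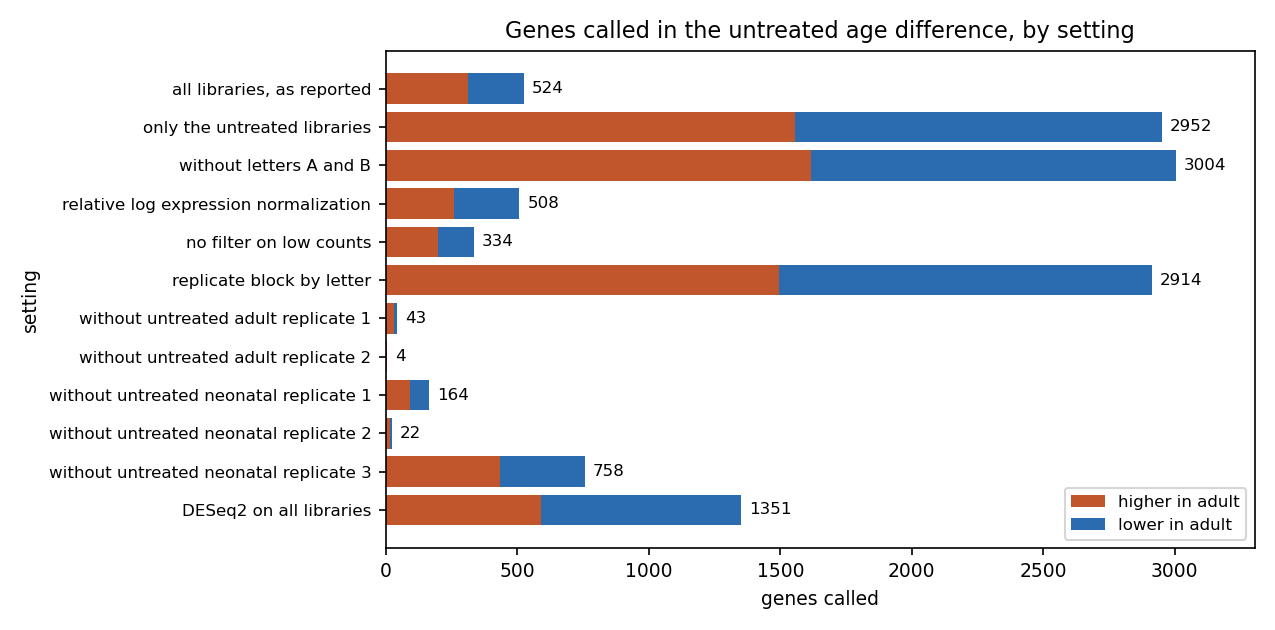
Bars give the number of genes called in the untreated age difference under each setting, split into genes higher (orange) and lower (blue) in adult cells. The 524 genes of the fit with all libraries fell to 4 without adult replicate 2 and stood at 2952 when only the untreated libraries were fitted.

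The largest rises in adult cells included genes of the cell surface and its surroundings, and the largest falls in a lysophospholipid receptor, contractile proteins and an integrin. Itga8 (Ensembl ENSMUSG00000026768; chromosome 2, 12106632 to 12301922, minus strand, GRCm38), the alpha subunit of a receptor for RGD-containing matrix proteins, stood at 169.8 and 202 CPM (adult) against 14.7, 8.53 and 38.4 CPM (neonatal). The adult libraries were both above the highest neonatal one, replicate 3, and the log2 fold change was 3.17 ± 0.75 (adjusted p = 0.021). Itga4 (chromosome 2, 79255426 to 79333123, plus strand), which encodes the alpha chain of a fibronectin and VCAM1 receptor, stood at 6.5 and 12.5 CPM (adult) against 1.91, 1 and 2.24 CPM (neonatal). It rose by 2.46 ± 0.53 (adjusted p = 0.0163), with adult replicate 2 well above replicate 1. Itga2 (chromosome 13, 114833081 to 114932100, minus strand), the alpha subunit of a collagen receptor, was the opposite case, at 1.51 and 1.43 CPM (adult) against 10.1, 12.2 and 8.45 CPM (neonatal). The adult pair lay close together and far below the neonatal libraries, at -2.80 ± 0.75 (adjusted p = 0.0406). Of 18 integrin genes measured, these 3 were called (16.7%, against 2.59% of all genes). Of the 18, 11 had positive log2 fold changes around a median of 0.281, against 51.2% positive and a median of 0.0125 over all genes. Itgb1, the shared beta chain of many of these receptors, stood at 829 and 915 against 582, 561 and 622 CPM and was not called (0.57 ± 0.17, adjusted p = 0.0627). Of these 3 calls, 1 and 0 were kept without adult replicates 1 and 2, and 1, 0 and 3 without neonatal replicates 1, 2 and 3. The adjusted p lay between 0.245 and 0.357 without adult replicate 2.

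**Figure D2:**
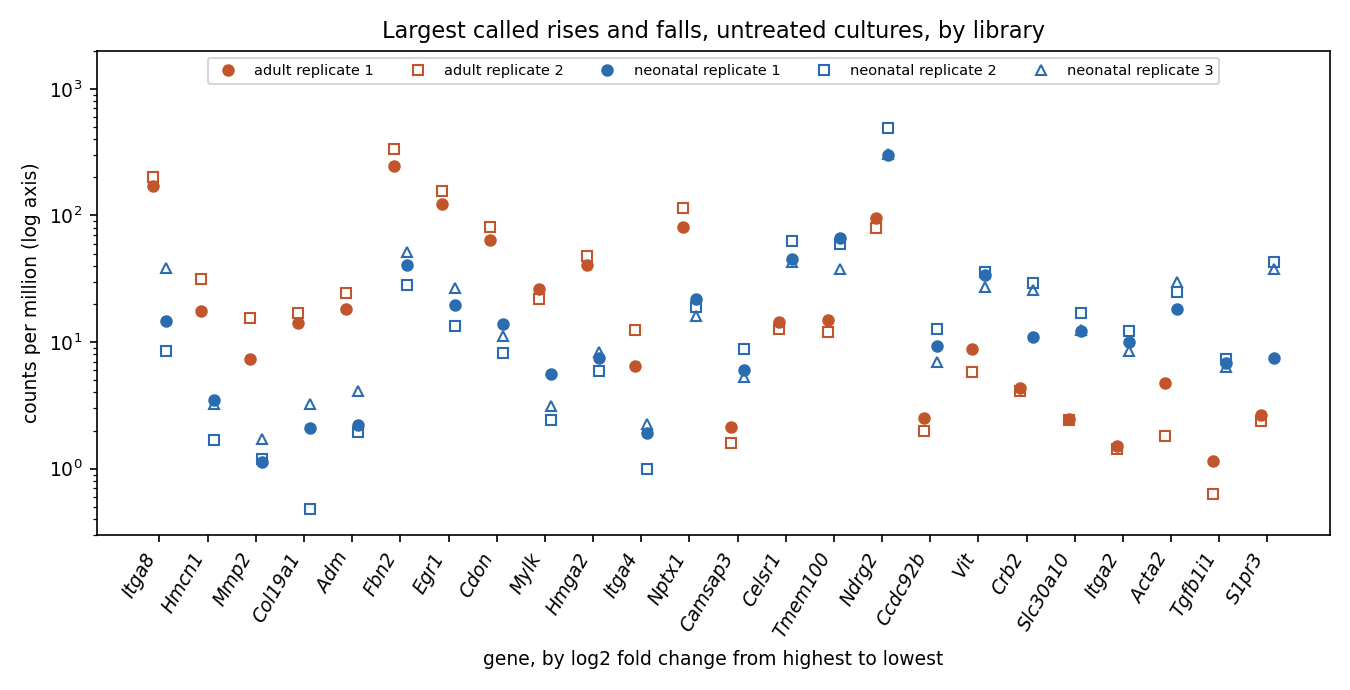
Each point is the level of a gene in 1 untreated library in CPM on a log axis, for the 12 largest rises (left) and 12 largest falls (right); orange is adult and blue neonatal, and the marker shape gives the replicate. Adult and neonatal points do not overlap for any of the 24 genes, which the choice of the genes required, and S1pr3 and Crb2 are lowest among neonatal libraries in replicate 1.

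Of 52 extracellular matrix genes measured 7 rose and 1 fell (15.4%, against 2.59% of all genes), while the median log2 fold change of the list was 0.001. Fbn2, which encodes the microfibril protein fibrillin 2, stood at 244 and 333 CPM (adult) against 40.9, 28.5 and 51.1 CPM (neonatal) and rose by 2.84 ± 0.54 (adjusted p = 0.00798). Its relative Fbn1 (57.2 and 65.5 against 39.8, 27.4 and 30.7 CPM) rose by 0.91 ± 0.18. Hmcn1 (chromosome 1, 150562524 to 150993435, minus strand), which encodes the large basement membrane protein hemicentin 1, stood at 17.6 and 31.2 CPM (adult) against 3.48, 1.68 and 3.24 CPM (neonatal). It rose by 3.11 ± 0.83 (adjusted p = 0.0403), with adult replicate 2 above replicate 1. Col19a1, a collagen of basement membrane zones, was outside the list and stood at 14.2 and 17 CPM (adult) against 2.08, 0.481 and 3.27 CPM (neonatal). Its lowest library was neonatal replicate 2, and the log2 fold change was 2.99 ± 0.63 (adjusted p = 0.0144).

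Laminins are the trimers that anchor basement membranes, and 3 of their chains rose together. Lama4 (chromosome 10, 38965515 to 39110188, plus strand) stood at 102 and 147 CPM (adult) against 31.8, 23.9 and 42.9 CPM (neonatal), a rise of 1.92 ± 0.32 (adjusted p = 0.00226). Lamb1 rose by 2.15 ± 0.53 (65.5 and 81.1 against 18.1, 16.1 and 15.3 CPM) and Lamc1 by 0.76 ± 0.16 (556 and 526 against 324, 320.2 and 317 CPM). Nid1, whose product nidogen links laminin to collagen IV, fell instead, at 41.5 and 24.5 against 51.3, 105 and 92.8 CPM (-1.33 ± 0.34, adjusted p = 0.0314). Spp1, the osteopontin gene, rose from low levels, at 6.47 and 9.46 against 2.56, 0.521 and 1.5 CPM (2.37 ± 0.58, adjusted p = 0.0268). Tnc, which encodes tenascin C, an adhesion-modulating glycoprotein of progenitor zones, stood at 1301 and 1722 CPM (adult) against 435, 138 and 168 CPM (neonatal). All adult values exceeded all neonatal ones, neonatal replicate 1 stood above the other neonatal libraries, and the gene was not called (log2 fold change 2.61 ± 0.74, adjusted p = 0.053). The non-coding 8030451A03Rik overlaps Tnc and had the largest called rise of any gene with an average log2 CPM of 2 or more (7.38 and 11.9 against 1.54, 0.401 and 0.935 CPM; 3.32 ± 0.85, adjusted p = 0.0344). It lay outside the naming rule and was chosen after its values were seen. Of the 9 matrix genes called, Col19a1 included, 2 and 0 were kept without adult replicates 1 and 2, and 7, 1 and 6 without neonatal replicates 1, 2 and 3. Leaving out adult replicate 2 put the adjusted p between 0.162 and 0.4.

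Of 27 matrix proteases and inhibitors measured 6 rose and 2 fell (29.6%, against 2.59% of all genes). Mmp2 (chromosome 8, 92827291 to 92853420, plus strand), the gelatinase A gene, stood at 7.42 and 15.4 CPM (adult) against 1.13, 1.2 and 1.7 CPM (neonatal) and rose by 3.08 ± 0.82 (adjusted p = 0.0406). Mmp15, a membrane-type matrix metalloprotease gene, was abundant at 1151 and 1280 against 575, 432 and 670.0 CPM and rose by 1.12 ± 0.24. Adamts1 and Adamts4, which encode proteoglycan-cleaving enzymes, rose by 1.64 ± 0.34 (86.2 and 92 against 27.7, 23.5 and 34.7 CPM) and 0.98 ± 0.23 (41.6 and 47.9 against 22.8, 22.1 and 23.2 CPM). The membrane-anchored disintegrin proteases Adam12 and Adam19 rose by 1.74 ± 0.46 and 0.84 ± 0.21, Adam12 from 177, 104 and 168 CPM in neonatal to 458 and 542 CPM in adult cells. Mmp24, a membrane-type protease gene of neural tissue, fell by 1.42 on the log2 scale (4.8 and 3.49 against 10.7, 13.7 and 8.95 CPM), and Mmp11, the stromelysin 3 gene, by 1.79 (0.635 and 0.631 against 1.74, 3.28 and 1.6 CPM). Adamts4, Mmp24 and Mmp11 each overlap another gene in the annotation (BC029722 for Mmp24 and Chchd10 for Mmp11), and the reads of such pairs cannot be told apart without a stated strand setting. Of the 8 calls, 0 and 0 were kept without adult replicates 1 and 2, and 3, 0 and 6 without neonatal replicates 1, 2 and 3. Adjusted p values were 0.213 to 0.376 in the absence of adult replicate 2.

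The libraries of both ages carried the defining genes of OPCs, and genes of the committed and newly formed stage leaned toward neonatal cells without most of them passing the test. Olig2, the transcription factor gene that specifies the lineage, stood at 1058 and 969 CPM (adult) against 1063, 939 and 970.2 CPM (neonatal), with overlapping groups (0.03 ± 0.16, adjusted p = 0.933). Olig1 (2035 and 1933 against 2234, 2083 and 2085 CPM, log2 fold change -0.11 ± 0.12), Sox10 (269 and 334 against 502, 509 and 369.7 CPM, -0.61 ± 1.09) and Pdgfra, the PDGF-AA receptor gene (768 and 817 against 1242, 823 and 1039 CPM, -0.38 ± 0.52), were not called over all libraries either. With edgeR on the untreated libraries alone Sox10 was called lower (-0.63, adjusted p = 0.0446), and Olig2, Olig1 and Pdgfra were not called. Cspg4, the gene of the NG2 proteoglycan on OPCs, stood at 315 and 163 CPM (adult) against 671, 470.0 and 498 CPM (neonatal). Adult replicate 2 was the lowest of the 5, and the gene was not called over all libraries (-1.19 ± 0.39, adjusted p = 0.0812). It was called with edgeR on the untreated libraries alone (-1.22, adjusted p = 0.0323). Of 22 OPC stage genes the untreated libraries alone gave 1 higher and 6 lower, against 8.92% and 8.01% of all genes. Over all libraries 0 rose and 2 fell (9.1%, against 2.59% of all genes), with a median log2 fold change of -0.364. Those 2 were transcription factor genes: Sox8, a partner of Sox10, at 213 and 164 CPM (adult) against 546, 592 and 309.8 CPM (neonatal) (-1.36 ± 0.31, adjusted p = 0.0192), and Nkx2-2, which promotes differentiation, at 42.8 and 46 CPM (adult) against 108, 129 and 63.2 CPM (neonatal) (-1.17 ± 0.29, adjusted p = 0.0268). In both, neonatal replicate 3 was the neonatal library nearest to the adult ones. Bulk libraries cannot tell fewer cells of a stage from less RNA per cell.

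Genes of committed and newly formed oligodendrocytes showed wide gaps between the ages and a wide spread among neonatal libraries. Gpr17, the receptor gene of the committed stage, stood at 124 and 118 CPM (adult) against 1869, 2466 and 713 CPM (neonatal). Its lowest neonatal library, replicate 3, was still several times above both adult ones, which lay close together. The log2 fold change was -3.79 ± 1.60, adjusted p = 0.161 in the fit of all libraries and -3.82 (adjusted p = 0.0109) when only the untreated libraries were fitted. Enpp6, Neu4 and Myrf, genes of newly formed oligodendrocytes, were lower in both adult libraries than in any neonatal one without being called over all libraries: 0.278 and 0.462 against 2.76, 13.8 and 6.68 CPM, 0.516 and 0.925 against 8.46, 20.7 and 2.91 CPM and 10 and 11.4 against 54.8, 113 and 25.8 CPM. With edgeR on the untreated libraries alone they were called lower (adjusted p = 0.0208, 0.0336 and 0.0305). EdgeR on the untreated libraries alone called 8 of the 20 genes of this list lower and 0 higher, against 8.01% and 8.92% of all genes. Over all libraries 1 of the 20 fell, Mycl, a Myc family transcription factor gene (33.4 and 21.9 against 84.8, 92 and 52.7 CPM, -1.47 ± 0.39, adjusted p = 0.0389). Of the 20 genes 4 had positive log2 fold changes around a median of -0.722. Their summed level was 2073 and 2109 CPM in adult libraries and 4692, 5911 and 2766 CPM in neonatal ones, so neonatal replicate 3 again lay nearest to the adult ones. Of the 4 calls in lineage genes (Sox8, Nkx2-2, Mycl and Adamts4), 0 and 0 were kept without adult replicates 1 and 2, and 0, 0 and 4 without neonatal replicates 1, 2 and 3. Without adult replicate 2 the adjusted p ran from 0.289 to 0.397.

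Myelin genes did not share a direction. Mbp, which encodes myelin basic protein, stood at 181 and 348 CPM (adult) against 9.69, 15.1 and 30.8 CPM (neonatal). Both adult libraries were above the neonatal ones, replicate 2 the most, but the gene was not called in the fit of all libraries (3.83 ± 1.43, adjusted p = 0.121). It was called in the untreated libraries alone (3.81, adjusted p = 0.0097). Cnp, a cyclic nucleotide phosphodiesterase gene of myelinating cells, stood at 342 and 389 against 558, 724 and 383 CPM and was not called (log2 fold change -0.60 ± 0.65). Of 25 myelin genes measured 1 rose and 0 fell (4% called, against 2.59% of all genes). The 1 was Adamts4, which oligodendrocytes also express. Of the 25, 15 had positive log2 fold changes around a median of 0.36. EdgeR on the untreated libraries alone called 5 higher and 1 lower among 24, against 8.92% and 8.01% of all genes. Without the libraries lettered A and B it called 9 higher and 1 lower of 25, where 14.8% of all genes were called.

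Every one of 43 S phase genes and 54 G2 and M phase genes had a positive log2 fold change, with medians of 0.924 and 0.569, against 51.2% positive among all genes tested. EdgeR called 2 and 0 of them, against 2.59% of all genes, and 38 and 23 had an unadjusted p under 0.05. With each library left out in turn, all 43 S phase genes stayed positive. Of the 54 G2 and M phase genes 46 did without neonatal replicate 2, 52 without adult replicate 1 and all 54 without any 1 of the others. Summed S phase levels were 3915 and 3758 CPM in adult libraries and 1987, 1408 and 2991 CPM in neonatal ones, and summed G2 and M phase levels 9892 and 8875 against 6457, 3992 and 8313 CPM. Neonatal replicate 3 lay nearest to the adult libraries in both sums and replicate 2 furthest. The count of S phase calls was 29 of 43 without neonatal replicate 3, where 3.74% of all genes were called, and 0 without any 1 of the other 4 libraries. It was 10 with the untreated libraries alone, 13 with DESeq2, 27 without the libraries lettered A and B and 37 with a replicate block by letter, where 16.9%, 7.89%, 14.8% and 14.4% of all genes were called. In these 4 fits G2 and M phase calls were 0, 3, 10 and 13 of 54, and they were 8 without neonatal replicate 3.

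The called S phase genes were Cdca7 and Ccne2. Cdca7, which encodes a chromatin protein needed for DNA methylation upkeep during replication, stood at 57 and 49.6 CPM (adult) against 22.2, 15.9 and 30.5 CPM (neonatal) (1.22 ± 0.33, adjusted p = 0.0427). Ccne2, the cyclin E2 gene, stood at 31.1 and 29.6 CPM (adult) against 8.29, 5.21 and 12.2 CPM (neonatal) (1.82 ± 0.50, adjusted p = 0.0461), though it overlaps Ints8. Mcm5 and Mcm6, which encode subunits of the replicative helicase, stood at 195 and 180.5 against 92.5, 57.8 and 162 CPM and 263 and 243 against 111, 80.7 and 204 CPM and were not called (0.85 ± 0.34 and 0.94 ± 0.32), nor was Cdc6, which loads that helicase (44.7 and 45.3 against 16.7, 9.69 and 29 CPM; 1.28 ± 0.40, adjusted p = 0.0731). Mki67, the proliferation marker gene, stood at 883 and 624 CPM (adult) against 225, 75.9 and 429 CPM (neonatal), adult above neonatal in all libraries without a call (1.63 ± 0.55, adjusted p = 0.0922). The G2 and M phase gene with the smallest p was Tubb4b, a tubulin gene (235 and 251 against 149, 116 and 193 CPM; 0.67 ± 0.21, adjusted p = 0.0726).

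S phase genes are known targets of E2F transcription factors, and the promoters of Cdca7 and of 3 licensing genes are shown because 8 of the 31 S phase promoters given by RefSeq (25.8%) held an E2F-type octamer. The letters searched were TTTCGCGC, TTTCCCGC and TTTGGCGC on both strands in the 250 bases before the start, where overlapping matches run together. They were found in 2.76% of the 12408 promoters of tested genes, 2 of 47 G2 and M phase, 0 of 17 cholesterol, 12 of 227 called higher (5.29%) and 1 of 147 called lower (0.68%). A match is a string of letters and not a measured binding site. Capitals mark the matches in these stretches, given 5′ to 3′ along the gene's strand in GRCm38.p6. Cdca7 lies at chr2:72475969-72476218 (plus), Mcm5 at chr8:75109326-75109397 (plus), Mcm6 at chr1:128359715-128359845 (minus) and Cdc6 at chr11:98907983-98908050 (plus).
Cdca7: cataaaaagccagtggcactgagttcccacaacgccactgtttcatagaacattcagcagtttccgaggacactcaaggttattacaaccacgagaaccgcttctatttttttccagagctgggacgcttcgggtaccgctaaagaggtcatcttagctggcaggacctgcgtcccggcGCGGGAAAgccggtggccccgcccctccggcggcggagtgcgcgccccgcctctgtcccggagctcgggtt
Mcm5: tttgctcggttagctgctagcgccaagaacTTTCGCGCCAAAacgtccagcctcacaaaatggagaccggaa
Mcm6: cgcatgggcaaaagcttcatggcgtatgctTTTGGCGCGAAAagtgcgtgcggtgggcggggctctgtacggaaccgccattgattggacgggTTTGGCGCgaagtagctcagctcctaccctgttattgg
Cdc6: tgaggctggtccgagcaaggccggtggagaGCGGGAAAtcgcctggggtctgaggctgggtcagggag

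The cell cycle brakes did not move as a block. Cdkn1a, the p21 inhibitor gene and a p53 target, stood at 474 and 536 CPM (adult) against 188, 189 and 287 CPM (neonatal) and rose by 1.19 ± 0.30 (adjusted p = 0.0294). Plk2, a p53-responsive kinase gene, also rose (206 and 212 against 87.2, 75.5 and 112 CPM; 1.19 ± 0.31), while Sesn1, a p53 target that restrains mTORC1, fell (39.9 and 36.6 against 62, 82.4 and 65.5 CPM; -0.87 ± 0.20). Of the 27 genes in that list 18 had positive log2 fold changes, with a median of 0.294. Mycn, which drives proliferation, rose from 2.87, 2.72 and 3.44 to 7.93 and 6.31 CPM (1.24 ± 0.32), and Mxd1, which antagonizes Myc proteins, fell from 44.7, 42.2 and 37.4 to 23.3 and 19 CPM (-0.97 ± 0.22). Both were chosen after their values were seen, and both lost their calls without adult replicate 1 or 2 or neonatal replicate 1 or 2. Ccnd1, the cyclin D1 gene through which mitogens act, stood at 1727 and 2132 against 555, 525 and 833 CPM and was not called (1.60 ± 0.46, adjusted p = 0.0549). Of the calls of Cdca7, Ccne2, Cdkn1a, Plk2 and Sesn1 (5), 0 and 0 were kept without adult replicates 1 and 2, and 1, 0 and 5 without neonatal replicates 1, 2 and 3. The adjusted p lay between 0.274 and 0.315 without adult replicate 2.

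**Figure D3:**
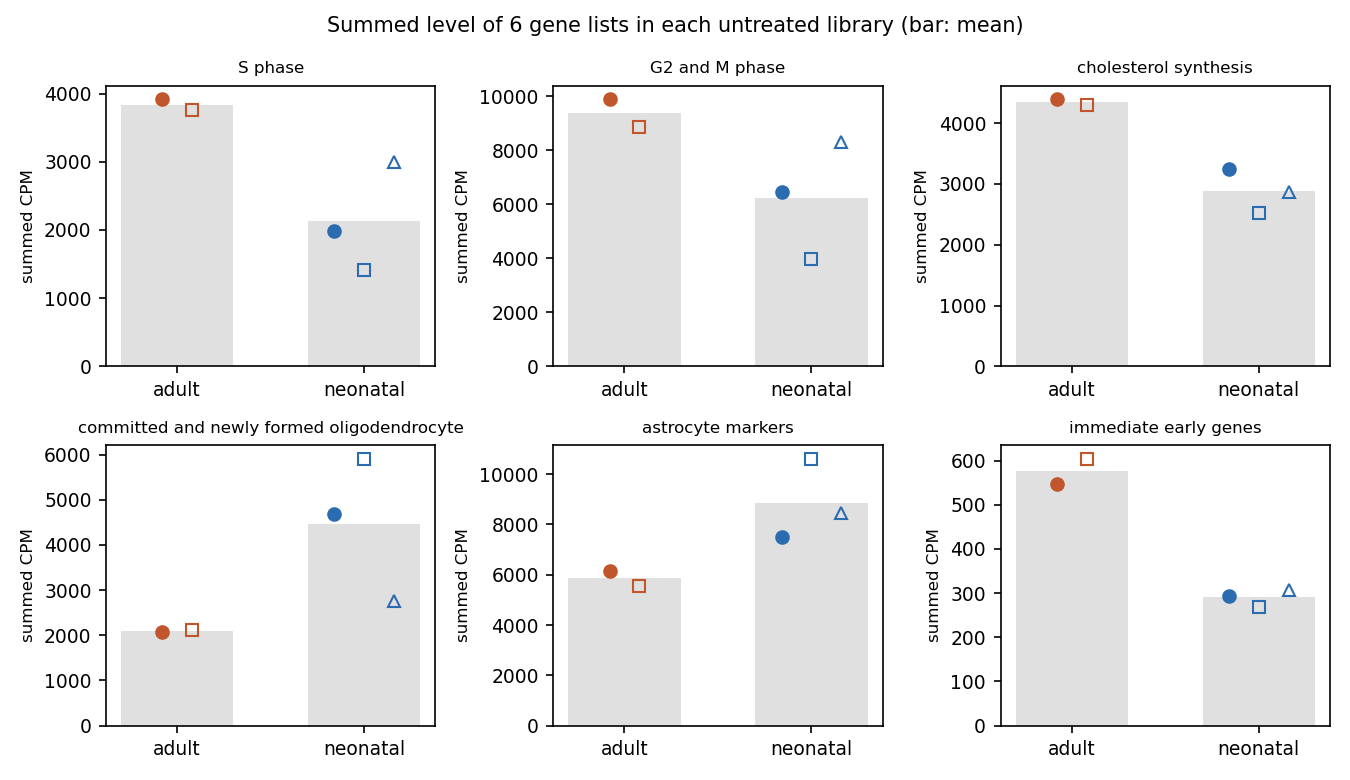
Each panel sums the CPM of 1 gene list in each untreated library (orange adult, blue neonatal; filled circle, square and triangle are replicates 1, 2 and 3; grey bars are means, axes start at 0). S phase sums were 3758 and 3915 CPM in adult libraries and 1408 to 2991 CPM in neonatal ones, and the astrocyte sums ran the other way.

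Cholesterol synthesis genes leaned higher in adult cells. Of 25 measured 24 had positive log2 fold changes around a median of 0.561. EdgeR called 3 in the fit of all libraries, where 2.59% of all genes were called. It called 16 in the untreated libraries alone, and DESeq2 called 9, where 16.9% and 7.89% of all genes were called. In these 3 fits 0 were lower. Msmo1, a sterol demethylation enzyme gene, rose by 0.95 ± 0.26 (214 and 223 against 128, 95 and 116 CPM), and Fdps, the farnesyl diphosphate synthase gene, by 0.84 ± 0.21 (7.34 and 7.32 against 4.51, 3.93 and 3.88 CPM), although Fdps has pseudogenes that may share its reads. Sqle, the squalene epoxidase gene, stood at 357 and 356 against 254, 200.4 and 232 CPM and did not pass (adjusted p = 0.11). The summed level of the list was 4389 and 4295 CPM in adult libraries and 3239, 2523 and 2874 CPM in neonatal ones, and the groups did not overlap. In the fatty acid and glycerolipid list 1 of 24 genes was called: Gpd1, the glycerol-3-phosphate dehydrogenase gene, at 168 and 208 CPM (adult) against 34.3, 49 and 59.1 CPM (neonatal) (1.99 ± 0.42, adjusted p = 0.0144). Of 22 glycolysis genes edgeR and DESeq2 called 0 over all libraries, while 4 had an unadjusted p under 0.05 and edgeR on the untreated libraries alone called 1 higher and 2 lower. The smallest p was that of Ldhb, a lactate dehydrogenase gene (192 and 181 against 229.8, 303 and 247 CPM; -0.48 ± 0.17, adjusted p = 0.108). Of the 4 calls, 1 and 0 were kept without adult replicates 1 and 2, and 1, 0 and 2 without neonatal replicates 1, 2 and 3. Leaving out adult replicate 2 put the adjusted p between 0.162 and 0.343.

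Several growth factor response genes rose in adult cells. Egr1, an immediate early transcription factor gene induced through MAP kinase signalling, stood at 124 and 156 CPM (adult) against 19.8, 13.5 and 27 CPM (neonatal). Adult libraries were above all of the neonatal ones, and Egr1 rose by 2.80 ± 0.74 (adjusted p = 0.0403). Egr2 rose by 3.02 ± 0.81 from lower levels (5.04 and 6.68 against 0.956, 0.28 and 0.902 CPM) and Ier3, an early response gene, by 2.20 ± 0.36 (23.8 and 29.2 against 6.21, 4.81 and 6.28 CPM). Of 21 immediate early genes these 3 rose and 0 fell (14.3% called, against 2.59% of all genes), 17 were positive and the median was 0.862. The untreated libraries alone gave 12 higher and 1 lower among 20, against 8.92% and 8.01% of all genes. Nab1 and Nab2, the corepressors that bind EGR proteins, rose as well, at 49.7 and 54.4 against 26.2, 20.5 and 28.8 CPM (1.05 ± 0.19) and 43.2 and 48.9 against 21.1, 17.4 and 18.9 CPM (1.27 ± 0.25). They were chosen after their values were seen, and Nab2 overlaps Nemp1. Spry4, a feedback inhibitor of receptor tyrosine kinase signalling, stood at 292 and 362 CPM (adult) against 90, 60.4 and 109 CPM (neonatal) and rose by 1.92 ± 0.38 (adjusted p = 0.0121). Phlda1, a feedback gene of the same pathway, rose by 0.97 ± 0.22 (37.1 and 44.3 against 22.5, 20.3 and 19.6 CPM), whereas Dusp6, an ERK phosphatase gene, was not called at 259 and 296 against 98.3, 90 and 122 CPM (1.42 ± 0.43, adjusted p = 0.066). Among the 26 mitogen receptor and feedback genes 2 rose and 0 fell, around a median of 0.341. Of these 7 calls, 2 and 0 were kept without adult replicates 1 and 2, and 5, 1 and 6 without neonatal replicates 1, 2 and 3. Adjusted p values were 0.117 to 0.334 in the absence of adult replicate 2.

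Of 17 cytokine and chemokine genes measured 2 rose (Ccl2 and Tnfrsf12a) and 0 fell (11.8% called, against 2.59% of all genes). Adm, which encodes the vasodilator peptide adrenomedullin, stood at 18.2 and 24.6 CPM (adult) against 2.22, 1.96 and 4.11 CPM (neonatal) (2.95 ± 0.80, adjusted p = 0.0427) and is not in that list. Ccl2, a monocyte-attracting chemokine, had 49 and 49 reads in adult and 9, 2 and 6 in neonatal libraries (3.30 ± 0.69, adjusted p = 0.0144). Its ratio of pooled reads over summed library totals was 9.65, with an exact 95% counting interval of 5.73 to 17.2. Tnfrsf12a, the TWEAK receptor gene, rose by 1.82 ± 0.48 (33.8 and 40.2 against 11, 8.49 and 11.9 CPM). Nptx1, a neuronal pentraxin gene, stood at 81.4 and 115 CPM (adult) against 22, 18.8 and 16.1 CPM (neonatal) and rose by 2.38 ± 0.53 (adjusted p = 0.0175). Angpt2, an angiopoietin gene that overlaps Mcph1, Il1rap, the interleukin 1 coreceptor gene, and Nt5e, an adenosine-forming ectoenzyme gene, were chosen after their values were seen, with log2 fold changes of 2.92 ± 0.60, 1.44 ± 0.21 and 2.32 ± 0.34. Of these 7 calls, 2 and 0 were kept without adult replicates 1 and 2, and 4, 2 and 7 without neonatal replicates 1, 2 and 3. Without adult replicate 2 the adjusted p ran from 0.0539 to 0.338.

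The pathways that pattern and hold progenitors had called genes among their receptors and modulators. Cdon (chromosome 9, 35421128 to 35507652, plus strand), which encodes a cell surface coreceptor for Hedgehog proteins, stood at 64.6 and 81.5 CPM (adult) against 14, 8.25 and 11.3 CPM (neonatal). Its log2 fold change of 2.71 ± 0.37 (adjusted p = 0.000631) carried the smallest standard error among the 12 largest rises, and the gene was called with any 1 of the 5 libraries left out (2.52 to 2.90). Gas1, another Hedgehog coreceptor gene, rose by 0.81 ± 0.17 (69.7 and 69.6 against 41.6, 37.3 and 40.2 CPM), but lost its call without adult replicate 1 or 2 or neonatal replicate 2 (adjusted p up to 0.217). Boc, a relative of Cdon, and Ptch1, the receptor and a target gene of the pathway, leaned the other way without a call (17.8 and 13.2 against 25.1, 36.2 and 28.7 CPM, -0.95 ± 0.33; 187 and 181 against 295, 321 and 287 CPM, -0.71 ± 0.24). Gas1, Boc and Ptch1 were chosen after their values were seen.

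In the Wnt list 3 of 34 genes rose and 1 fell (11.8% called, against 2.59% of all genes), and the median was -0.039. The 3 were Frizzled receptors: Fzd4 at 28.5 and 36.2 against 12.5, 15.7 and 14.4 CPM (1.19 ± 0.23, adjusted p = 0.00918), Fzd1 at 66.5 and 63.2 against 37.2, 35 and 35 CPM (0.86 ± 0.22) and Fzd10 at 47.1 and 45.6 against 21.7, 20.9 and 21.8 CPM (1.11 ± 0.28). Tcf7l1, a transcriptional repressor of Wnt targets, fell (15.3 and 13.2 against 30.1, 46.6 and 30.4 CPM; -1.33 ± 0.32). Celsr1, a planar polarity cadherin gene, fell from 45.4, 63.4 and 42.6 to 14.5 and 12.6 CPM (-1.90 ± 0.52, adjusted p = 0.0466). The Notch list had 1 of 21 genes called, Notch3, lower at 87.5 and 73.7 against 166, 202 and 157 CPM (-1.12 ± 0.29, adjusted p = 0.038), with 5 positive and a median of -0.493. The ligands Dll1 (115 and 86.3 against 198, 179 and 148 CPM) and Dll3 (82.2 and 73.8 against 286, 286 and 148 CPM) and the target Hes5 (10.1 and 3.66 against 38.3, 30.9 and 19.6 CPM) were lower in both adult libraries without a call over all libraries (log2 fold changes -0.79 ± 0.31, -1.62 ± 0.66 and -2.10 ± 1.05). With edgeR on the untreated libraries alone their adjusted p values were 0.0229, 0.0174 and 0.0257. Among 46 guidance genes, the repellent Sema3a (1.19 ± 0.31) and the netrin receptor Unc5b (0.85 ± 0.22) rose and the semaphorin receptor Plxnb1 fell (-0.99 ± 0.25). Of these 9 calls, 1 and 0 were kept without adult replicates 1 and 2, and 3, 1 and 8 without neonatal replicates 1, 2 and 3. The adjusted p lay between 0.245 and 0.379 without adult replicate 2.

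In the BMP list 2 of 21 genes rose (9.5%, against 2.59% of all genes called), the ligand Bmp7 (146 and 154 against 77.7, 63.4 and 99.5 CPM, 0.90 ± 0.22) and the pseudoreceptor Bambi (0.77 ± 0.21). In the TGF-beta list 2 of 19 rose (10.5%), the receptor Tgfbr2 (19.9 and 23.9 against 6.31, 6.01 and 7.58 CPM, 1.72 ± 0.37, adjusted p = 0.0163) and the activin antagonist Fst (1.34 ± 0.37). Id4, a target of BMP signalling, stood at 14.3 and 10.3 against 42.6, 84.8 and 54 CPM, apart in all libraries but not called (-2.29 ± 0.71, adjusted p = 0.0681). In the IGF list 1 of 13 fell, Igfbp5, which binds insulin-like growth factors (68.7 and 51.7 against 130.2, 244 and 174 CPM; -1.60 ± 0.41, adjusted p = 0.0339). Of these 5 calls, 0 and 0 were kept without adult replicates 1 and 2, and 1, 0 and 3 without neonatal replicates 1, 2 and 3. Leaving out adult replicate 2 put the adjusted p between 0.245 and 0.371.

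S1pr3 (chromosome 13, 51408639 to 51422797, plus strand), a receptor gene for the lysophospholipid sphingosine 1-phosphate, showed the largest called fall among genes of average log2 CPM 2 or more, at 2.66 and 2.4 CPM (adult) against 7.44, 42.8 and 38 CPM (neonatal). Neonatal replicate 1 was well below the other 2 neonatal libraries but above both adult ones. The log2 fold change was -3.54 ± 0.57 (adjusted p = 0.00216). S1pr3 overlaps Gm32834. Its relatives did not follow: S1pr2 rose (42.6 and 42.3 against 23.6, 21.6 and 29 CPM; 0.78 ± 0.20), as did the lysophosphatidic acid receptor gene Lpar6, which overlaps Rb1 (19.8 and 21.8 against 11.5, 9.69 and 10.4 CPM; 0.98 ± 0.21). Plpp3, which encodes an ectophosphatase that breaks these lipids down, fell (285 and 237 against 485, 579 and 483 CPM; -0.98 ± 0.21). In all, 2 of the 18 genes rose and 2 fell (22.2%, against 2.59% of all genes). Of these 4 calls, 1 and 0 were kept without adult replicates 1 and 2, and 3, 1 and 4 without neonatal replicates 1, 2 and 3. Adjusted p values were 0.162 to 0.311 in the absence of adult replicate 2.

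Genes of the contractile apparatus split. Acta2 (chromosome 19, 34241090 to 34255590, minus strand), the smooth muscle actin gene, stood at 4.76 and 1.81 CPM (adult) against 18.4, 24.9 and 29.9 CPM (neonatal) and fell (-2.89 ± 0.76, adjusted p = 0.0389). Tgfb1i1, which encodes the focal adhesion protein Hic-5, stood at 1.15 and 0.631 CPM (adult) against 6.86, 7.33 and 6.41 CPM (neonatal) and fell (-2.94 ± 0.63, adjusted p = 0.0155), as did the smooth muscle myosin gene Myh11, at low levels (0.317 and 0.252 against 1.23, 1 and 1.3 CPM; -2.03 ± 0.36). Mylk, the myosin light chain kinase gene, stood at 26.4 and 21.7 CPM (adult) against 5.56, 2.44 and 3.11 CPM (neonatal) and rose by 2.69 ± 0.66 (adjusted p = 0.0261), and Tpm1, a tropomyosin gene, by 1.08 ± 0.20 (367 and 394 against 177, 161 and 201 CPM). Of 28 actin and SRF target genes 1 rose and 3 fell (14.3%, against 2.59% of all genes). Mylk was not in the list. Acta2, Myh11 and Notch3 are also markers of pericytes and smooth muscle. Of the 7 such markers measured these 3 fell, 2 had positive log2 fold changes (up to 2.189) and the median was -1.604. The summed level was 170 and 179 CPM in adult libraries and 207, 246 and 214 CPM in neonatal ones. Notch3 alone held 87.5 and 73.7 CPM of it in adult and 166, 202 and 157 CPM in neonatal libraries, so the sum mostly follows that gene. The defining receptor gene Pdgfrb was near 0 in adult libraries (0.0793 and 0.0841 against 0.171, 0.961 and 0.802 CPM, log2 fold change -2.91 ± 1.11, not called), and Kcnj8, Abcc9, Vtn, Higd1b, Anpep, Des and Cnn1 had too few counts to test. The part of such cells in the falls was not tested. Of the 5 calls, 0 and 0 were kept without adult replicates 1 and 2, and 3, 1 and 3 without neonatal replicates 1, 2 and 3. Without adult replicate 2 the adjusted p ran from 0.195 to 0.396.

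**Figure D4:**
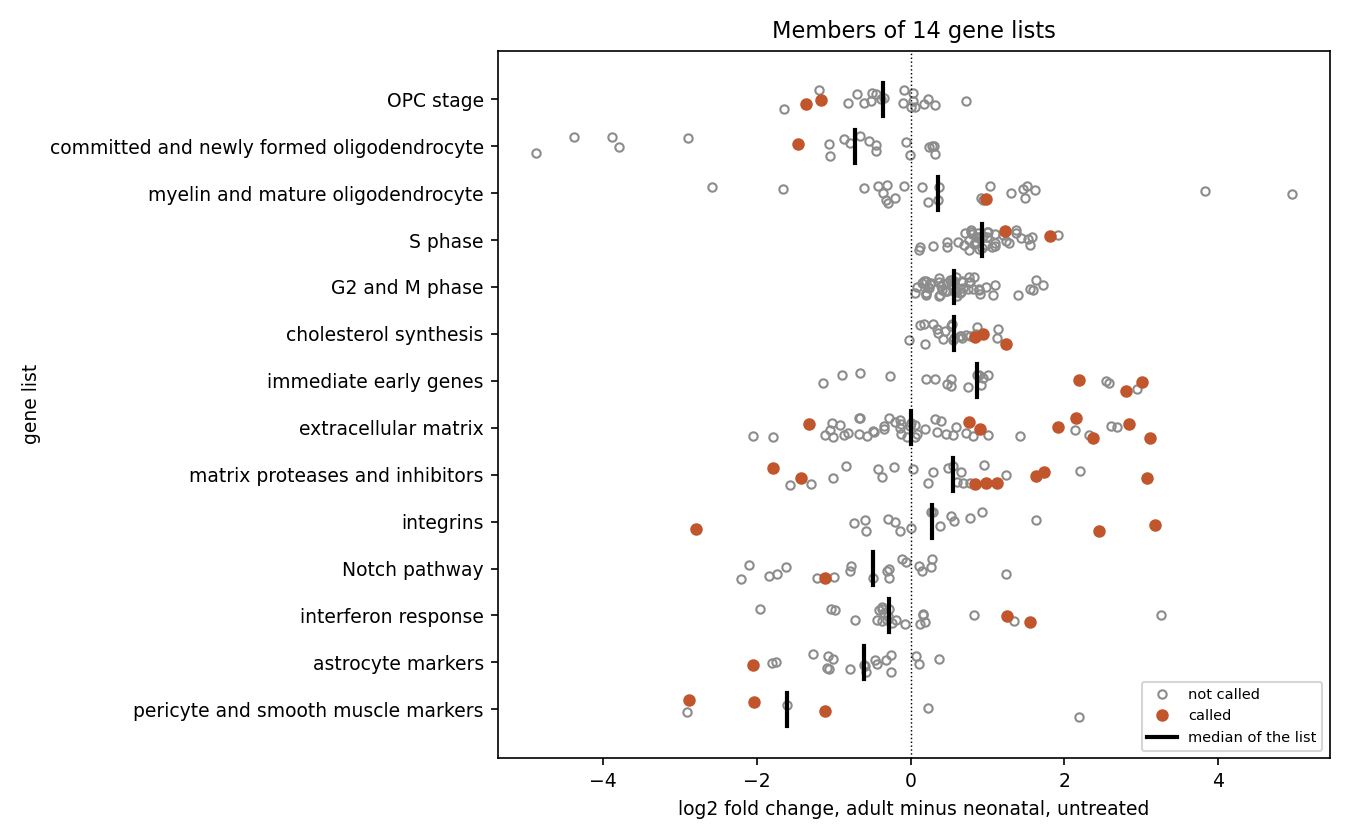
Each circle is the log2 fold change, adult minus neonatal in untreated culture, of 1 gene in 14 lists; filled circles were called by edgeR and black bars are list medians. All circles of the S phase and G2 and M phase lists lie above 0, with 2 and 0 of them called, while matrix and protease genes reach 3.11 and 3.08.

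A few developmental transcription factors, at very low counts in neonatal libraries, were detected in adult ones. Tfap2a (chromosome 13, 40715302 to 40738376, minus strand), an AP-2 factor gene of neural crest and ectoderm, had 140 and 178 reads in adult and 1, 1 and 2 in neonatal libraries (adjusted p = 0.000906). The ratio of pooled reads over summed library totals was 133, with an exact 95% counting interval of 51.5 to 491. Pax9 had 49 and 93 against 7, 5 and 11 reads (ratio 10.3, interval 6.62 to 16.8; adjusted p = 0.0144) and Isl2, a LIM homeobox gene, 115 and 80 against 8, 6 and 12 (12.6, 8.31 to 19.7; adjusted p = 0.0166). Foxd2, a forkhead gene chosen after its values were seen, had 38 and 37 against 1, 0 and 5 reads (20.9, 9.18 to 58.8; adjusted p = 0.000631). The neighbouring non-coding Foxd2os on the other strand rose by 2.70 ± 0.42 (5.95 and 5.63 against 1.02, 0.481 and 1.14 CPM). Foxc1, a forkhead gene of mesenchyme and meninges, rose by 1.46 ± 0.33 (12.1 and 11.9 against 3.38, 4.13 and 5.51 CPM). Hmga2, a chromatin protein gene of dividing progenitors that overlaps 9230105E05Rik, stood at 40.5 and 47.7 CPM (adult) against 7.44, 5.93 and 8.35 CPM (neonatal) (2.60 ± 0.52, adjusted p = 0.0116). Pou3f1, a POU factor gene of glial precursors, rose by 2.38 ± 0.51 (158 and 159.7 against 32.6, 15.3 and 44 CPM) and Cebpa by 1.75 ± 0.31. Both were chosen after their values were seen. Of 33 patterning factors measured, Tfap2a, Pax9 and Isl2 rose and 0 fell (9.1% called, against 2.59% of all genes). Of the 33, 20 had positive log2 fold changes, and the values ran from -7.227, which was not called, to 6.983. Of these 9 calls, 5 and 3 were kept without adult replicates 1 and 2, and 6, 3 and 9 without neonatal replicates 1, 2 and 3. The adjusted p lay between 0.0159 and 0.251 without adult replicate 2.

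The counting intervals above cover counting error only, since reads are not independent molecules. The other 12 adult and 15 neonatal libraries, given DMSO or inhibitors and carrying recurring replicate letters, show how far these levels hold outside untreated culture. Every other adult library was above every other neonatal one for 8 of the 312 higher genes (2.56%), against 0.627% of all genes tested: Tfap2a, Foxd2, Isl2, Pax9, Gpd1, Ifi27, Foxc1 and Klf9. Every other adult library was below every other neonatal one for 5 of the 212 lower genes (2.36%), against 1.16% of all genes: Ndn, Nkx2-2, 6430503K07Rik, Tgfb1i1 and Zdbf2. 6430503K07Rik is an antisense gene that overlaps Nkx2-2, and without a stated strand setting the reads of the pair cannot be told apart. In the DMSO libraries among them, Tfap2a stood between 0.792 and 5.63 CPM in adult and between 0.0296 and 0.155 CPM in neonatal cells.

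Imprinted genes, expressed from a single parental allele, divided. Zdbf2, a paternally expressed gene of chromosome 1, had 1 and 3 reads in adult and 86, 38 and 68 in neonatal libraries (adjusted p = 0.019). The neonatal to adult ratio of pooled reads over summed library totals was 28.7 (exact 95% counting interval 11 to 106). Ndn, which encodes the growth suppressor necdin, stood at 38.9 and 39 CPM (adult) against 86, 97.1 and 71.3 CPM (neonatal) and fell by 1.12 ± 0.31 (adjusted p = 0.0476). Peg12, an imprinted gene in the same region of chromosome 7 as Ndn, rose instead (69.8 and 71.9 against 31.3, 20.3 and 29.9 CPM, 1.38 ± 0.29, adjusted p = 0.0148), as did Peg10, a retrotransposon-derived gene (174 and 229 against 82.7, 60.9 and 83 CPM, 1.41 ± 0.37). Of 26 imprinted genes measured, 2 rose and 2 fell (15.4%, against 2.59% of all genes). Of these 4 calls, 0 and 0 were kept without adult replicates 1 and 2, and 1, 0 and 4 without neonatal replicates 1, 2 and 3. Leaving out adult replicate 2 put the adjusted p between 0.217 and 0.371.

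Each list of chromatin genes had 0 or 1 call over all libraries. Kat5 and Ep300, which encode acetyltransferases, and Kmt5b and Kmt5c, which encode H4K20 methyltransferases, belong to the enzyme families that inhibitors in other libraries of the series are labelled for, and over all libraries edgeR and DESeq2 called 0 of these 4 genes (41.4 and 43.6 against 55.9, 53.1 and 50.3 CPM, 165 and 171 against 191, 167 and 156 CPM, 76.4 and 77.6 against 91, 77.1 and 75 CPM and 33.8 and 32.5 against 43.1, 36.8 and 38.2 CPM). Their log2 fold changes were -0.32 ± 0.15, -0.03 ± 0.18, -0.07 ± 0.19 and -0.25 ± 0.15, with an unadjusted p under 0.05 for 1 of them. On the untreated libraries alone edgeR called Kat5 lower (-0.35, adjusted p = 0.0489) and none of the other 3. Of 13 acetyltransferase genes edgeR called 0 over all libraries, while 3 had an unadjusted p under 0.05, DESeq2 called 1 higher, and the untreated libraries alone gave 1 higher and 1 lower. Hat1, the histone H4 acetyltransferase gene, had the smallest p among them (83.1 and 86.4 against 42.9, 35.3 and 59.5 CPM; 0.88 ± 0.27, adjusted p = 0.066). Eed, a core subunit of the Polycomb repressive complex, rose (50.7 and 54.4 against 32.1, 29.3 and 35.4 CPM; 0.70 ± 0.15, adjusted p = 0.0163), Hdac11 fell (6.82 and 5.59 against 13.9, 19.7 and 14.2 CPM; -1.36 ± 0.30, adjusted p = 0.0163) and Mbd1, a methyl-CpG binding protein gene, fell by a small amount (62.5 and 57.7 against 73.1, 73.2 and 79.7 CPM; -0.33 ± 0.09, adjusted p = 0.046). These were 1 of 14 repressive methyltransferase genes (7.1%), 1 of 18 deacetylase genes (5.6%) and 1 of 12 DNA methylation genes (8.3%), against 2.59% of all genes. Of the calls of Eed, Hdac11, Mbd1 and the remodeller gene Chd7, which was chosen after its values were seen (4 in all), 0 and 0 were kept without adult replicates 1 and 2, and 1, 0 and 3 without neonatal replicates 1, 2 and 3. Adjusted p values were 0.251 to 0.401 in the absence of adult replicate 2.

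Transmitter receptors and ion channels, which differ between young and mature OPCs in the intact brain, gave 0 calls among 41 and 32 genes with edgeR over all libraries, with medians of 0.015 and -0.016. An unadjusted p under 0.05 was found for 11 and 9 of them, and DESeq2 called 4 and 0. The untreated libraries alone gave 9 higher and 7 lower among the 41 receptors and 4 higher and 3 lower among the 32 channels, where 8.92% of all genes were called higher and 8.01% lower. Among the ion channels the smallest p was that of Kcnc1, a voltage-gated potassium channel gene (397 and 425 against 169.7, 150.0 and 192 CPM; 1.27 ± 0.45, adjusted p = 0.104). Of 25 interferon response genes 2 rose and 0 fell (8% called, against 2.59% of all genes), around a median of -0.284. The 2 were Ifi27 (20.3 and 27.8 against 7.48, 9.49 and 7.52 CPM, 1.56 ± 0.35, adjusted p = 0.0183) and Gbp3 (27 and 28.7 against 11.9, 10 and 12.9 CPM, 1.26 ± 0.30, adjusted p = 0.0229). Of 13 complement and acute phase genes 0 rose and 1 fell (7.7% called, against 2.59% of all genes), namely C1rl, with 9 and 3 against 28, 48 and 40 reads (adjusted p = 0.0403). Its adult to neonatal ratio of pooled reads over summed library totals was 0.173 (exact 95% counting interval 0.087 to 0.314). Antigen presentation, oxidative stress, and the integrated stress and unfolded protein response had 0 calls with edgeR over all libraries among 17, 24 and 23 genes, around medians of -0.211, -0.26 and 0.322. An unadjusted p under 0.05 was found for 2, 7 and 7, and DESeq2 called 0, 3 and 1. On the untreated libraries alone edgeR called 0 higher and 2 lower in the first, 3 and 5 in the second, and 6 and 1 in the last, against 8.92% and 8.01% of all genes. Their members with the smallest p were Ciita, the regulator of class II antigen genes (0.555 and 0.757 against 1.5, 1.72 and 1.3 CPM; -1.20 ± 0.53, adjusted p = 0.179), Mt1, a metallothionein gene (81.6 and 62.4 against 103, 239 and 157 CPM; -1.21 ± 0.37, adjusted p = 0.0681), and Mthfd2, a mitochondrial folate enzyme gene (53 and 51.5 against 21.5, 14.5 and 23.8 CPM; 1.39 ± 0.40, adjusted p = 0.0563). Of the calls of Ifi27, Gbp3 and C1rl (3), 0 and 0 were kept without adult replicates 1 and 2, and 0, 0 and 3 without neonatal replicates 1, 2 and 3. Without adult replicate 2 the adjusted p ran from 0.268 to 0.398.

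Markers of other brain cells were measured beside these results, and their part in them was not tested. Astrocyte markers were higher in neonatal libraries: 3 of 20 had positive log2 fold changes, with a median of -0.601, and their summed level was 6161 and 5562 CPM in adult libraries and 7512, 10620 and 8440 CPM in neonatal ones. A single gene was called, Ndrg2 (chromosome 14, 51905271 to 51914158, minus strand), a gene astrocytes express strongly, at 96 and 79.8 CPM (adult) against 299, 488 and 306 CPM (neonatal) (-2.05 ± 0.48, adjusted p = 0.021). Aqp4, the astrocyte water channel gene, stood at 28.2 and 30.8 against 75.2, 123 and 109.8 CPM and Aldh1l1 at 347 and 339 against 505, 737 and 529 CPM, neither called, and Gfap at 39.2 and 55.3 against 10.3, 134 and 70.8 CPM, with overlapping groups. The untreated libraries alone called 10 of the 20 lower and 0 higher, against 8.01% and 8.92% of all genes. Neuron markers summed to 1170 to 1193 CPM in adult libraries and 789 to 1071 CPM in neonatal ones, and endothelial markers to 18.4 to 26.1 and 20.2 to 25.4 CPM. Over all libraries edgeR and DESeq2 called 0 of these 13 and 8 markers, 1 and 0 had an unadjusted p under 0.05, and the untreated libraries alone gave 1 higher and 1 lower neuron marker. Of 17 microglia and macrophage markers 5 had enough counts to test, with sums of 17.5 to 18.7 and 17.8 to 18.6 CPM, and Cx3cr1, Tmem119, Aif1, C1qa and Ptprc were among the 12 that did not. EdgeR and DESeq2 called 0 of the 5 and 1 had an unadjusted p under 0.05. The members with the smallest p were Syp, a synaptic vesicle protein gene (13.1 and 12.6 against 23.1, 19.8 and 12.9 CPM; -0.53 ± 0.22, adjusted p = 0.162), Tek, the angiopoietin receptor gene (0.595 and 0.42 against 0.102, 0.0801 and 0.468 CPM; 1.19 ± 0.61, adjusted p = 0.25), Csf1r, the microglial growth factor receptor gene, with 12 and 8 against 4, 3 and 3 reads (adjusted p = 0.203), and Rsph1, a cilium gene of ependymal cells (1.35 and 1.09 against 1.43, 3.24 and 2.57 CPM; -0.98 ± 0.38, adjusted p = 0.136). Of 7 fibroblast and meningeal markers tested 3 had positive log2 fold changes, with a median of -0.194. The values ran from -2.912 to 8.881, and neither extreme was called. The summed level of these markers was 15.0 to 15.8 CPM in adult and 5.73 to 8.12 CPM in neonatal libraries. It was mostly Foxc1 (12.1 and 11.9 against 3.38, 4.13 and 5.51 CPM), the 1 called. Schwann cell markers summed to 123 and 147 CPM against 68.3, 56.6 and 88.4 CPM. Over all libraries edgeR called 0 of the 9 tested, 5 had an unadjusted p under 0.05, and DESeq2 called 1 higher and 1 lower (7.89% of all genes). The untreated libraries alone gave 3 higher and 1 lower of these markers, against 8.92% and 8.01% of all genes. Pmp22, a peripheral myelin gene, had the smallest p among them (96.7 and 114 against 54.1, 41 and 73.8 CPM; 0.90 ± 0.26, adjusted p = 0.0587).

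The remaining large falls belonged to no single list. Crb2, an apical polarity gene that overlaps Dennd1a, stood at 4.32 and 4.12 CPM (adult) against 10.9, 29.3 and 25.6 CPM (neonatal) (-2.38 ± 0.47, adjusted p = 0.0109). Neonatal replicate 1 was the lowest neonatal library, as for S1pr3. Slc30a10, a manganese exporter gene overlapping Gm2061, stood at 2.46 and 2.44 CPM (adult) against 12.2, 16.9 and 12.6 CPM (neonatal) (-2.50 ± 0.64, adjusted p = 0.0329). Vit (-2.13 ± 0.42), which encodes the matrix protein vitrin, Tmem100 (-2.02 ± 0.55), a BMP-linked membrane protein gene, Ccdc92b (-2.10 ± 0.58) and Camsap3 (-1.85 ± 0.43), which encodes a microtubule minus-end protein and overlaps Xab2, fell as well, with adult levels of 8.85 and 5.8, 14.9 and 12, 2.5 and 1.98 and 2.14 and 1.6 CPM. Their neonatal levels were 33.6, 35.9 and 27.1, 66.2, 59.3 and 37.7, 9.32, 12.6 and 6.92 and 6.08, 8.89 and 5.34 CPM. Of the calls of Ndrg2 and these 6 genes (7 in all), 0 and 0 were kept without adult replicates 1 and 2, and 4, 0 and 7 without neonatal replicates 1, 2 and 3. The adjusted p lay between 0.238 and 0.392 without adult replicate 2.

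The age difference was then set against that of the DMSO cultures, which use other libraries, to ask whether it was the same in vehicle and untreated culture. The test of the difference itself called 2204 of 20259 genes (10.9%), in 1191 of which the age difference was more positive in untreated cells (5.88%) and in 1013 more negative (5%). It uses the same untreated libraries as the calls above. Of the 312 genes higher in untreated adult cells 193 were among the more positive, 154 had a positive age difference in DMSO (51.5% of all genes did), and 36 were called higher and 23 lower there, against 6.54% and 6.22% of all genes. Of the 212 lower genes 142 were among the more negative, 117 had a positive age difference in DMSO, and 19 were called lower and 23 higher there. Egr1 had an age difference of 2.80 ± 0.74 untreated and -1.43 ± 0.56 in DMSO, a difference of 4.23 ± 0.93 (adjusted p = 0.00702), and Arc, an activity-induced gene, one of 2.95 ± 1.01 and -1.49 ± 0.73, a difference of 4.43 ± 1.25 (adjusted p = 0.0228). EdgeR called neither DMSO value (adjusted p = 0.0884 and 0.176). Neonatal DMSO libraries spread widely, from 36.7 to 369 CPM for Egr1 and from 3.34 to 29.1 CPM for Arc. Adult DMSO libraries ran from 36.5 to 51.3 and from 1.07 to 8.68 CPM. C4b, a complement gene, ran the other way, at -1.56 ± 0.79 and 3.46 ± 0.61 (-5.02 ± 1.04, adjusted p = 0.00513), as did Agt, the angiotensinogen gene (-3.76 ± 0.67, adjusted p = 0.00233), Cyp4f15 (-3.73 ± 0.91, adjusted p = 0.0111), S1pr3 (-4.35 ± 0.68, adjusted p = 0.00106) and Gfap (-4.60 ± 1.38, adjusted p = 0.0316). Tfap2a, Pax9, Isl2, Gpd1, Ndn and Tgfb1i1 had age differences of one sign in both, with DMSO values of 5.37 ± 0.72, 3.78 ± 0.55, 3.42 ± 0.59, 1.97 ± 0.31, -1.41 ± 0.23 and -3.00 ± 0.44, and the test of the difference did not call them.

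Some lists leaned toward adult cells in untreated culture and away from them in DMSO, while others, such as integrins (medians 0.281 and 0.338), had medians of one sign in both. For S phase, G2 and M phase and cholesterol synthesis the median age differences were 0.924, 0.569 and 0.561 untreated and -0.525, -0.523 and -0.881 in DMSO. The test of the difference called 35 of 43, 28 of 54 and 23 of 25 of their genes more positive in untreated cells and 0 more negative. For astrocyte markers the medians were -0.601 and 1.102, with 12 of 20 called more negative, and for complement and acute phase genes -0.641 and 1.613, with 6 of 13. The total of 2204 was 542 and 195 without untreated adult replicates 1 and 2, 1795, 650 and 2215 without untreated neonatal replicates 1, 2 and 3, and 1869 when only untreated and DMSO libraries were fitted. Untreated and DMSO cultures differ in vehicle and possibly in culture time, which cannot be told apart here.

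**Figure D5:**
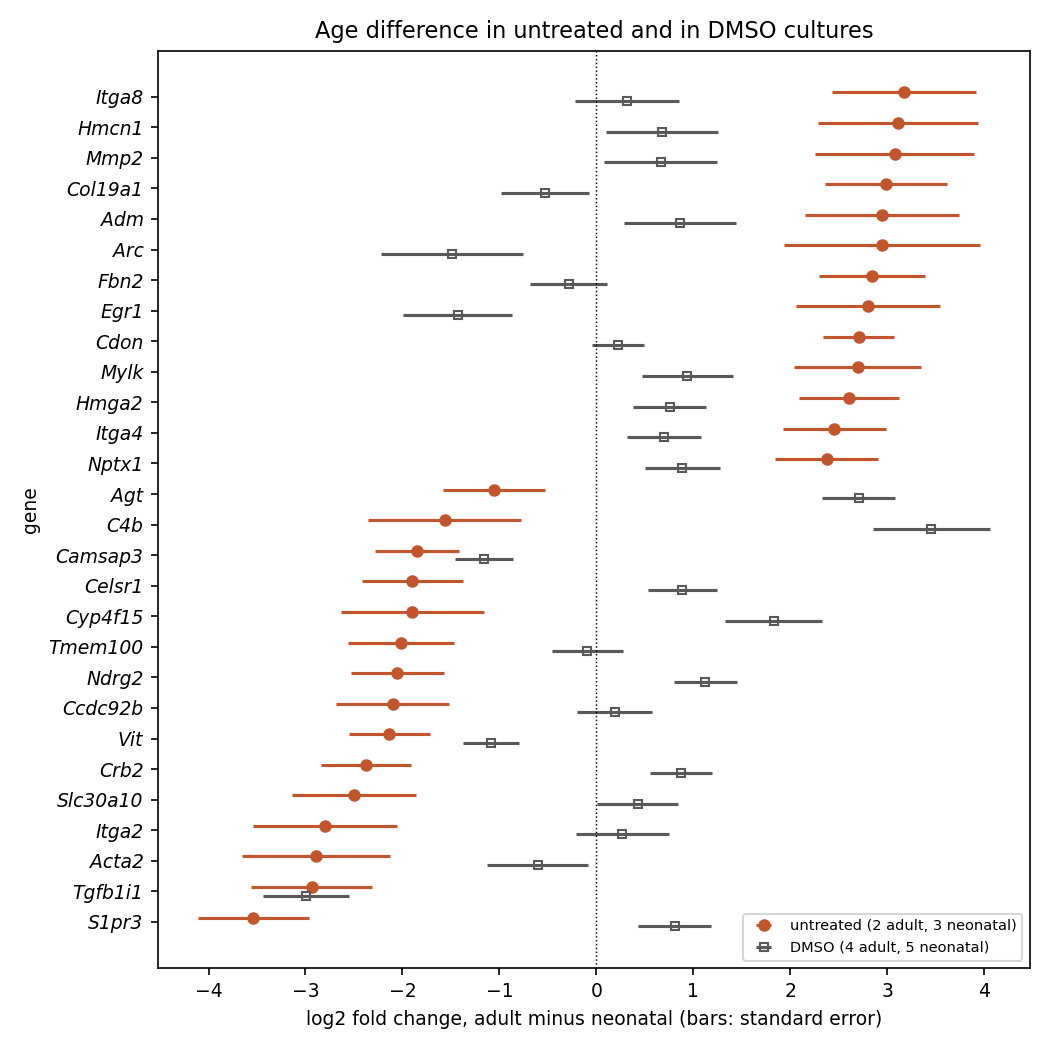
Points are log2 fold changes, adult minus neonatal, with standard errors, in untreated (orange circles; 2 adult and 3 neonatal libraries) and DMSO cultures (grey squares; 4 and 5 libraries), for the largest rises, falls and differences between both. Tgfb1i1 has nearly the same value in both, whereas Egr1 stands at 2.80 untreated and -1.43 in DMSO, where it was not called.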

How the data were processed

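Total RNA was sequenced as paired ends on an Illumina HiSeq instrument, per the labels' protocols. The deposited table holds counts of reads per gene, which the authors made with Subread and featureCounts on mm10 after CASAVA 1.8.2, per the submitters' processing notes, which also name DESeq2; the sources used here give no annotation release and no strand setting. Of 56980 identifiers, 4855 paired with no symbol through GENCODE vM21 (2.37% of counts) and were kept. Counts were analysed in R 4.3.3 with edgeR 4.0.16: TMM factors (0.951 to 1.03), filterByExpr (minimum count 10, leaving 20259 genes), and quasi-likelihood F tests over 8 groups and 32 libraries (24 residual degrees of freedom), with Benjamini-Hochberg adjustment over all genes and calls under 0.05. Fold changes are log2, with standard errors, adult minus neonatal. Counting ratios pool the raw reads of each age over its summed library totals, without the TMM factors that the CPM levels use. Their intervals are exact at 95%. Alternatives were the untreated libraries alone, other filters and normalization, DESeq2 1.42.0, a replicate block and each library left out; the script was tested on simulated data. Members and gene lists were chosen with earlier results of these data known. Named by rule were the 12 largest called rises and falls with an average log2 CPM of 2 or more and no overlap, without predicted, mitochondrial or ribosomal protein genes; up to 3 called members of each list, or the member with the smallest p; a set list of markers; and the 4 largest differences from DMSO in each direction. Adam12, Adam19, Mmp11, Lamb1, Lamc1, Nid1, Spp1, S1pr2, Fzd10, Foxd2os, 6430503K07Rik, Klf9, Aldh1l1, Aqp4, Boc, Ccnd1, Cdc6, Cnp, Dll1, Dll3, Dusp6, Enpp6, Id4, Itgb1, Mcm5, Mcm6, Myrf, Neu4, Olig1, Pdgfrb, Ptch1 and Sqle were chosen after their values were seen. Values of some genes are not reported here.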

Additional observations from a re-analysis of the deposited data

Results flagged for a closer look

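The age difference differed between untreated and DMSO cultures for 2204 genes by edgeR's test of the difference itself (adjusted p under 0.05). Among the genes named for the largest untreated age differences, it was more positive untreated for Itga8 by 2.86, Col19a1 by 3.52, Fbn2 by 3.13, Egr1 by 4.23 and Cdon by 2.48 on the log2 scale. Naming these genes used the same untreated libraries, which favours large values here. For genes named by other rules, the age difference was more positive untreated by 2.17 for Mki67 and by 4.43 for the activity-induced gene Arc. It was more negative untreated for S1pr3 (-4.35), Itga2 (-3.07), Slc30a10 (-2.93), Crb2 (-3.25), Ccdc92b (-2.29), Ndrg2 (-3.18) and Celsr1 (-2.78). The same held for Gfap (-4.60), C4b (-5.02), Agt (-3.76) and Cyp4f15 (-3.73). Groups of 2 and 3 libraries are too small for a check of single outlying libraries.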

How the results depend on the processing

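The 524 calls (312 higher, 212 lower) varied with the setting. They became 2952 (1555 and 1397) with the untreated libraries alone, 3004 (1616 and 1388) without the libraries lettered A and B, 334 (198 and 136) with no filter on low counts, 1351 (588 and 763) with DESeq2 and 508 (259 and 249) with relative log expression scaling. With 1 untreated library left out they ranged from 4 to 758, higher from 4 to 435 and lower from 0 to 323; the lowest came without adult replicate 2 and the highest without neonatal replicate 3. The 2204 differences from DMSO became 3848 (2145 and 1703) without letters A and B and ranged from 195 to 2215 with a library left out, higher from 131 to 1314 and lower from 64 to 901. A replicate block by label letter gave 2914 calls (1496 and 1418) and 4035 differences from DMSO (2081 and 1954). Deviations of libraries with the same letter correlated at -0.0143 between untreated adult and neonatal cells, which share 2 letters and so give a single value. They correlated at 0.0277 to 0.246 between untreated and DMSO neonatal cells (3 letters, against -0.259 to 0.24 for other letters). Between untreated and DMSO adult cells (2 letters) the value was 0.122, so a pairing by letter was not established for untreated cells. Adult DMSO and SUV420i cells gave 0.405 to 0.656 for the same letter and -0.433 to 0.176 for other letters. Adult KATi and SUV420i cells gave 0.179 to 0.62 and -0.369 to 0.172. These ranges overlapped between adult DMSO and KATi cells and between the treated neonatal groups. The fit of all libraries had no term for the letters. Some values smaller than their standard errors changed sign with a library left out. Olig2 ranged from -0.0628 (without adult replicate 1) to 0.0944, with -0.0208 without neonatal replicate 2, and Gfap from -1.11 to 0.206 (without neonatal replicate 2). Ep300 ranged from -0.0876 to 0.0540 and Kmt5b from -0.125 to 0.0180, both highest without neonatal replicate 1, and Ep300 stood at 0.0026 with the replicate block. The untreated minus DMSO difference of Tgfb1i1 ranged from -0.498 (without adult replicate 1) to 0.423. The cause was not tested. The main limits are 2 adult libraries, replicates not tied to animals by the labels, a strand setting that is not given, and genes at a few reads such as Foxd2 and Zdbf2, whose ratios are known only within wide counting intervals.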

Other observations

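Further genes of named families were called and were chosen after their values were seen. Besides Adamts1 and Adamts4, 4 more secreted proteases of the ADAMTS family rose in adult cells: Adamts14, which processes procollagen, at 58.2 and 61.3 against 12.8, 8.61 and 17.3 CPM (2.21 ± 0.60, adjusted p = 0.0443), Adamts19 at 14 and 14.3 against 5.29, 3.2 and 4.48 CPM (1.70 ± 0.47), Adamts20 at 5.28 and 5.8 against 2.05, 1.52 and 2.2 CPM (1.52 ± 0.40) and Adamts8 at 8.53 and 9.8 against 4.51, 4.49 and 3.47 CPM (1.14 ± 0.32). Their adult and neonatal libraries did not overlap, and edgeR's adjusted p lay between 0.0397 and 0.0485, the smallest being that of Adamts20. Without adult replicate 2 it lay between 0.313 and 0.371, none was called without adult replicate 1 or neonatal replicate 1 or 2 either, and Adamts14 and Adamts20 were called without neonatal replicate 3. In metabolism, Mthfd1l, a mitochondrial one-carbon enzyme gene, stood at 61.2 and 72.4 CPM (adult) against 28.8, 18.5 and 29.8 CPM (neonatal) and rose by 1.38 ± 0.21 (adjusted p = 0.00091), and Pdk2, a kinase gene that restrains pyruvate dehydrogenase, fell (25.9 and 25.2 against 54.9, 69.4 and 46.6 CPM; -1.16 ± 0.26, adjusted p = 0.0173). Without adult replicate 2 neither was called (adjusted p 0.101 and 0.258); without adult replicate 1 or neonatal replicate 2 Mthfd1l was called and Pdk2 was not. Msi1, an RNA-binding protein gene of neural progenitors, fell (93.4 and 75.8 against 124, 153 and 128 CPM; -0.68 ± 0.15, adjusted p = 0.0163), and Klf9, a thyroid hormone and glucocorticoid responsive factor gene, rose by 0.64 ± 0.14 untreated (49.9 and 51.3 against 32.8, 31.9 and 32.6 CPM) and differed by 0.62 ± 0.11 in DMSO. Msi1 lost its call without adult replicate 2 (adjusted p = 0.342) or neonatal replicate 2 (0.111), and Klf9 without any 1 library but neonatal replicate 3 (adjusted p up to 0.248).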
